A study of Mus musculus with 1989 samples.

Results

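The peaks described here are those of the mouse major histocompatibility complex (MHC), found as every peak of a single-cell ATAC-seq (scATAC-seq) table with a start between 33.6 and 37.4 Mb of chromosome 17 (GRCm38). There were 818 of them among 138317 peaks. By the genes around them, 335 lay in class I parts, 158 in the class II part, 246 in the class III part and 79 in the flank ahead of H2-K2. Class I parts were set by position, as the K, D/Q, framework, T and M blocks. The framework (150 peaks, between H2-Q10 and H2-T24) and M (74 peaks, past the T genes) blocks hold mostly genes other than H2 genes. scATAC-seq counts DNA fragments cut by a transposase, which enters open chromatin more readily than packed chromatin. A cell was taken as open at a peak where it had at least 1 fragment there, and each such pair of a cell and a peak is called an opening.

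The study profiled thymocytes of male C57BL/6 mice aged 7 weeks by scATAC-seq and, in a single library, by single-cell RNA-seq. Cells used here were 182 DN sorted, 125 DP sorted, 119 CD4 sorted and 116 CD8 sorted thymocytes, with 1084 unsorted total thymocytes beside them. No genetic change or treatment is named for any of them, the sort gates were not described in the sources used, and no label ties a cell to an animal. Each sort therefore counts as 1 sample: no difference between sorts was tested, and the 95% intervals given (exact Poisson for counts, Clopper-Pearson for shares of cells, exact conditional for ratios) cover counting error only.

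Thymocytes begin as double negative (DN) cells without CD4 or CD8, pass through a double positive (DP) stage with both, and leave as CD4 or CD8 single positive cells. The choice between these fates depends on peptides shown by MHC molecules: class II proteins present to CD4 T cells and class I proteins to CD8 T cells. In mice the H2 complex holds classical class I genes on both sides of the class II and class III parts (H2-K1, H2-D1), many related Q, T and M genes, the class II genes with the machinery that trims and carries peptides, and the class III part with complement, heat shock and cytokine genes. Class I genes are active in most nucleated cells, whereas classical class II genes are known chiefly from B cells, dendritic cells, macrophages and thymic epithelium.

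The sorts were checked first at the starts of lineage genes. Rag1, whose product cuts antigen receptor genes, was open in 25.6% of DP sorted cells, 8.79% of DN and 10.3% of CD8. It was open in 0 of 119 CD4 sorted cells, with an interval up to 3.05%. In ratios, 3 cells (here 2.52%) serve as a floor for such a 0. Cd8a was open in 15.2% of DP and 15.5% of CD8 sorted cells but in 1.68% of CD4 sorted cells. The other CD8 lineage genes, Cd8b1 and Runx3, were also highest in CD8 sorted cells (24.1% and 21.6%) but set CD4 apart less. Cd8b1 was open in 12.6% of CD4 and 19.2% of DP sorted cells, and Runx3 in 13.4% and 8.00%. Zbtb7b, the CD4 lineage regulator, was open in 12.6% of CD4 sorted cells and in 0 of 116 CD8 sorted cells. The Cd4 start itself did not follow the label: 1 of 119 CD4 sorted cells was open there against 8 of 125 DP sorted cells. Among the DN genes Il2ra and Hes1 had their highest shares in DN sorted cells (8.79% and 9.34%), but scaled by openings Il2ra was highest in CD8 (0.216 per 10000, against 0.184 in DN), and Kit was open in 4.95% of DN and 8.00% of DP sorted cells. Depth was uneven, with medians from 2328 (CD4) to 3488 (CD8) open peaks per cell in the sorts and 4727 in total thymocytes. Within sorts it followed the cells' label numbers: medians were between 1010 and 1186 in all 4 sorts for the series of numbers that begins at 31000, and at least 3579 for the series that begins at 4000. Both series hold all 4 sorts, so ratios are also given within them.

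Each peak is listed as 4000 bp wide, but the counts behave as if taken from a narrower span. For 449 of the 818 peaks the neighbours on both sides cover the whole interval, and yet in 49.0% of the openings at these peaks neither neighbour was open. Over all peaks, neighbours that start under 500 bp apart shared 70.4% of the open cells of the smaller peak, those 1000 to 1500 bp apart 28.6%, and those 2000 to 4000 bp apart 9.24%. Thus adjoining peaks can differ although their listed intervals overlap, and values are assigned to a peak's centre. The nearest peak centre lay within 500 bp of the start for 49 of the 51 listed genes of the region that had a peak.

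Sequences ahead of 5 gene starts are shown, as examples of class I genes with their lowest pooled values in DP sorted cells (H2-K1, H2-Q4, H2-Q7) and of classical class II genes (H2-Aa, H2-Eb1). Each is the 200 bases before the start, 5′ to 3′ on the strand of the gene, from RefSeq (GRCm38.p6): H2-K1 at chr17:34000348-34000547 (minus strand), H2-Q4 at chr17:35379417-35379616 (plus), H2-Q7 at chr17:35438955-35439154 (plus), H2-Aa at chr17:34287824-34288023 (minus) and H2-Eb1 at chr17:34305667-34305866 (plus). Capitals mark the searched letters on either strand.
H2-K1: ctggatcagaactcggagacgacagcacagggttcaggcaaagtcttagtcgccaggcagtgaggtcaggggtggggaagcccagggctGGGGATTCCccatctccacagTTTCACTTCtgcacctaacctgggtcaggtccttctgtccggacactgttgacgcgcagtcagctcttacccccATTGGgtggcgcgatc
H2-Q4: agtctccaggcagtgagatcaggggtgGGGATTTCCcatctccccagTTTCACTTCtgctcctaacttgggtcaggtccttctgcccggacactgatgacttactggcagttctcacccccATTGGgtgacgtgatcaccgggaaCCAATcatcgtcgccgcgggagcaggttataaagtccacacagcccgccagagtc
H2-Q7: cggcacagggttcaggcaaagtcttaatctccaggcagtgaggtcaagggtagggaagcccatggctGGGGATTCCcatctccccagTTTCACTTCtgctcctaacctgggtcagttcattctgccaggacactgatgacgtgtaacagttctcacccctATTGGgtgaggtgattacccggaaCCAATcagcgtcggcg
H2-Aa: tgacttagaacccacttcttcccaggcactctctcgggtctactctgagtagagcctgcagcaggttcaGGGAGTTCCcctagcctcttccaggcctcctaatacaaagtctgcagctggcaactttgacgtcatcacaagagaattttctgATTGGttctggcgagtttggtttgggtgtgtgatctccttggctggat
H2-Eb1: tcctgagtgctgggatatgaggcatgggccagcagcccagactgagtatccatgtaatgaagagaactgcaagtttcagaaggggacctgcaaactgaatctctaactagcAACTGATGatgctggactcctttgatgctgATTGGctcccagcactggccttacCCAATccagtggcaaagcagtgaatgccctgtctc

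The letters searched were ATTGG (the Y box, bound by NF-Y), AACNGATG (the end of the X box of class II genes), GAANNGAAA (interferon regulatory factors), GGGNNTTCC (NF-kappa B) and CCGGAAGT (Ets factors), on both strands of the 250 bases before to 50 after each start. No match overlapped a match to other letters in the listed genes. ATTGG stood in 37.4% of all 32851 promoters, GAANNGAAA in 7.52%, GGGNNTTCC in 5.82%, CCGGAAGT in 3.89% and AACNGATG in 2.32%. Of 9 class I promoters in the table, 8 held ATTGG, 7 GAANNGAAA and 5 GGGNNTTCC, and 0 held AACNGATG. Of 8 class II promoters, 7 held ATTGG and 4 AACNGATG (H2-DMb1, H2-DMb2, H2-Eb1 and H2-Eb2), and 0 held GAANNGAAA. Promoters of H2-K1, H2-D1 and the Q genes compared repeated each other at length: the longest identical run was 67 bases between H2-Q6 and H2-Q7, 47 between H2-K1 and H2-D1, and 34 between H2-Q4 and H2-Q7. H2-T22 and H2-T23 shared runs of only 7 to 12 bases with these, near the 8 bases between H2-K1 and H2-Aa.

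In total thymocytes the 5 most open members, counting 1 of any that overlap, lay at starts of broadly active genes rather than of H2 genes. They belonged to the class III, framework and flank parts. The peak centred near the start of Rnf5, a ubiquitin ligase, was open in 78.0% of total thymocytes. It was open in 46.7% of DN, 45.6% of DP, 47.1% of CD4 and 40.5% of CD8 sorted cells. Its listed interval also holds the start of Agpat1, an enzyme of phospholipid synthesis. Next came the peak that holds the starts of Ppp1r10 and Mrps18b (65.8% of total thymocytes), Prrc2a (59.3%), Mdc1, a DNA damage mediator (53.5%), and Rab11b, a vesicle GTPase (53.0%). Class II peaks without a coding start ranked 6 and 10, in exons of Brd2 (48.2%) and H2-DMa (36.5%). The median member was open in 1.94% of total thymocytes against 1.20% over all peaks of the table. A protein-coding start lay in the listed interval of 370 members (45.2%, against 23.2% of all peaks), and these were open in a median of 3.32% of total thymocytes against 1.29% for the other 448. Their median GC content was 53.1% against 48.6%. Across the 818 peaks GC content and openness had a Spearman rho of 0.268 as a description (0.342 over 272 members that do not overlap), the peaks sharing cells, libraries and depth.

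**Figure D1:**
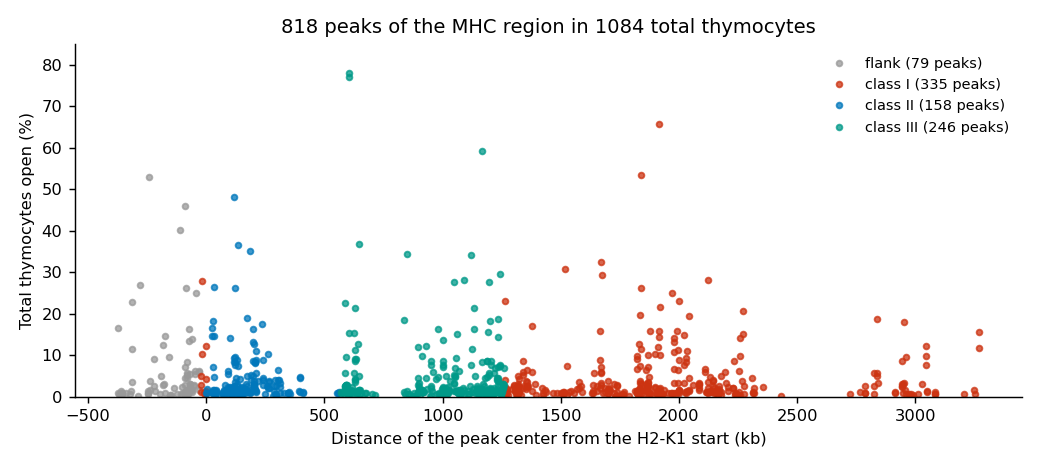
Share of 1084 total thymocytes open at each of the 818 peaks (y axis, percent) against the distance of the peak centre from the H2-K1 start (x axis, kb), coloured by part. The highest points reach 53.0% in the flank, 65.8% in class I, 48.2% in class II and 78.0% in class III, and each part also holds many peaks near 0.

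For sums over parts, members that overlap no more open peak were used (272 of 818, and 62536 over the whole table), each as openings per 10000 openings in all such peaks, which takes the number of open peaks per cell into account. The whole region held 62.9 per 10000 in DN sorted cells (3170 openings), 55.2 in DP (1303), 60.5 in CD4 (1647), 58.0 in CD8 (1406) and 76.7 in total thymocytes (24559). DN was 1.14 times DP (1.07-1.22), CD4 1.10 times DP (1.02-1.18) and CD8 1.05 times DP (0.973-1.13), whereas for the rest of chromosome 17 the same ratios were 1.01, 1.02 and 0.982. Pooled DP sorted cells thus had the lowest share of their openings in the region, but not in every series: the DP cells from 3000 held 61.2 per 10000, of which 25.1 in class I, and the DN cells from 32000 held 55.9. Over 36 first label numbers of total thymocytes the share varied by 77.1 ± 3.25 (SD, n = 36), from 68.3 to 83.2, a range wider than that of the 4 sorts. All 4 sorts lay below that range. This held for DP sorted cells too, although the paper describes DP cells as the majority of thymocytes. Sorts and total thymocytes also differed in the share of openings at promoter peaks, from 45.1% to 49.0% in sorts against 57.6% in total thymocytes. The part of this difference in the lower values of the sorts was not tested.

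Class I, class II and class III parts differed between sorts by different amounts. The class I parts together held 25.1 per 10000 in DN (23.7-26.5), 22.8 in DP (20.9-24.8), 26.5 in CD4 (24.6-28.5) and 25.0 in CD8 (23.1-27.1). Most of this came from the framework and M blocks, with 11.4 and 6.51 in DN, 10.9 and 5.85 in DP, 12.1 and 7.20 in CD4, and 11.1 and 5.57 in CD8. CD4 was 1.17 times DP (1.04-1.31), with 1.13 in the label numbers from 4000 and 1.92 in those from 31000. The class II part held 9.89 per 10000 in DN (9.04-10.8), 7.58 in DP (6.51-8.78), 8.34 in CD4 (7.29-9.49) and 7.63 in CD8 (6.57-8.81). Here the pooled DN value stood above the others, at 1.303 times DP (1.10-1.55), with 1.50 and 2.15 within the label series from 4000 and 31000. Single series crossed over: the 62 DN cells from 32000 held 8.12 per 10000 and the 32 DP cells from 3000 held 9.36. Class III openings made up 18.2 per 10000 in DN, 15.8 in DP, 16.7 in CD4 and 16.4 in CD8, with DN at 1.15 times DP (1.02-1.303). Intervals for CD4 over CD8 included 1 in all 3 classes, with ratios of 1.06, 1.09 and 1.02.

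**Figure D2:**
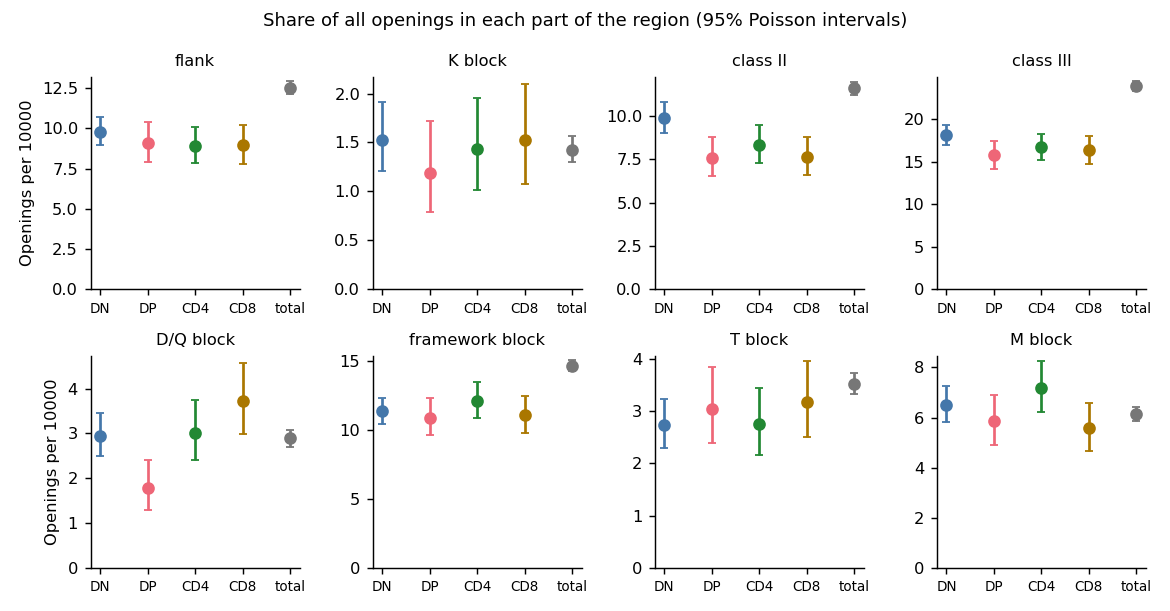
Openings per 10000 openings (y axis, from 0) in each part and block of the region for the 4 sorts and total thymocytes (x axis), with exact Poisson 95% intervals that cover counting error only. In the D/Q panel DP sits at 1.78 and CD8 at 3.71, with intervals that do not overlap.

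Among the class I blocks, the one from H2-D1 to H2-Q10 (D/Q, 52 peaks, 20 of them not overlapping) differed most between sorts in relative terms. It held 2.94 per 10000 in DN (148 openings, 2.48-3.45), 1.78 in DP (42, 1.28-2.41), 3.01 in CD4 (82, 2.39-3.74) and 3.71 in CD8 (90, 2.98-4.56), and 2.89 in total thymocytes. CD8 was 2.09 times DP (1.43-3.08), CD4 1.69 times (1.15-2.52) and DN 1.65 times (1.16-2.38). In the label numbers from 4000 these ratios were 2.32, 1.63 and 2.21, and in those from 31000 they were 8.83, 6.99 and 5.47, where the DP sort had 2 openings. The lower DP value was not shared by every set of DP cells. The 32 DP sorted cells with label numbers from 3000 held 2.70 per 10000 (19 openings, 1.62-4.21), within the range of the DN series (2.44 to 4.21), while those from 4000 held 1.50 (21 openings). Over the 36 sets of total thymocytes the block held 2.89 ± 0.530 per 10000 (SD, n = 36), from 1.97 to 4.20. The pooled DP value lay below this range and the CD8 value inside it. Total thymocytes, of which the paper describes DP cells as the majority, thus held more than pooled DP sorted cells. The reason was not tested.

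**Figure D3:**
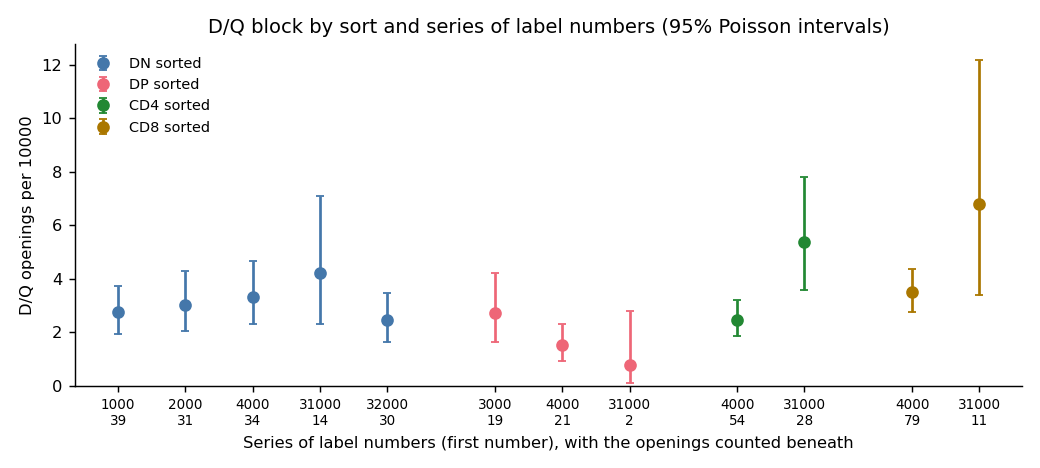
Openings of the D/Q block per 10000 openings (y axis, from 0) for each series of label numbers within a sort (x axis, with the number of openings beneath), with exact Poisson 95% intervals. DP points sit at 2.70, 1.50 and 0.770, and the first of them falls among the DN points.

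Reads from D/Q genes may be split between near-identical copies, since 15.1% of the 50-base windows of the median D/Q peak recur on chromosome 17, against 1.57% for the median member and 26.0% in the T block. The 20 peaks were therefore divided at 10% of windows repeated. In the 6 peaks below it, openings made up 1.03 per 10000 in DN, 0.847 in DP, 1.84 in CD4 and 1.24 in CD8, and CD4 was 2.17 times DP (1.27-3.84), while the intervals for DN over DP (1.22, 0.715-2.15) and CD8 over DP (1.46, 0.802-2.71) included 1. In the other 14 they were 1.91, 0.932, 1.18 and 2.47, with CD8 at 2.65 times DP (1.60-4.54), DN at 2.04 times (1.28-3.41), CD4 at 1.26 times (0.710-2.28) and CD4 at 0.475 times CD8 (0.299-0.741). DP had the lowest value in both sets, not always beyond counting error, and the order of CD4 and CD8 turned around between them.

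The classical class I genes also had their lowest values in DP sorted cells, with wide intervals. H2-K1 (peak chr17:33998331-34002330, over the gene start) was open in 12.6% of DN, 7.20% of DP, 17.6% of CD4, 13.8% of CD8 and 12.3% of total thymocytes. H2-D1 (chr17:35260995-35264994), the classical class I gene at the far side of class III, was open in 18.1% of DN, 11.2% of DP, 25.2% of CD4, 16.4% of CD8 and 23.1% of total thymocytes. For both genes pooled CD4 sorted cells were highest and pooled DP sorted cells lowest, before and after scaling by openings. Scaled by openings in all peaks, CD4 was 2.06 times DP at H2-K1 (0.905-5.11) and 1.89 times DP at H2-D1 (0.974-3.86), so neither interval cleared 1. Within the label series from 4000 and 31000 these ratios were 1.56 and 1.97 for H2-K1, and 1.83 and 2.46 for H2-D1. The rest of the order did not hold in each series: CD4 was 0.624 times CD8 at both genes in the label numbers from 31000, and DN was 0.960 times DP at H2-D1 in those from 4000. After each cell was thinned to 1000 open peaks, H2-D1 remained open in 2.96% of DN, 2.75% of DP, 8.99% of CD4 and 7.95% of CD8 cells.

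H2-Q4, a nonclassical class I gene (peak chr17:35377601-35381600), was open in 13.7% of DN, 4.80% of DP, 12.6% of CD4 and 8.62% of CD8 sorted cells, with 17.1% of total thymocytes. CD4 was 2.21 times DP (0.810-6.95) and DN 1.93 times (0.774-5.76), with 1.54 and 1.34 in the label numbers from 4000. CD8 was 1.62 times DP, and 0.853 times DP in the label numbers from 4000, where 7 of 96 CD8 and 5 of 64 DP cells were open. H2-Q7, which encodes a Qa-2 molecule and whose promoter shares the longest run with that of H2-Q6, gave another order. Its peak (chr17:35437052-35441051) was open in 18 of 182 DN sorted cells (9.89%), 0 of 125 DP (interval up to 2.91%), 5 of 119 CD4 (4.20%), 4 of 116 CD8 (3.45%) and 1.11% of total thymocytes. DN was at least 2.78-fold higher than a floor of 3 open DP cells, the exact interval of the ratio itself reached down to 2.04, and the 18 open cells are below the minimum of 20. The DN cells open at H2-Q7 numbered 4 of 32, 3 of 32, 7 of 32, 1 of 24 and 3 of 62 in the label series from 1000, 2000, 4000, 31000 and 32000. Of the windows in this peak, 54.8% are repeated, and its neighbour at H2-Q6 (56.2% repeated) was open in 7 DN, 0 DP, 1 CD4 and 2 CD8 sorted cells.

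Other class I genes lie farther along. H2-T22, a nonclassical gene whose product is a ligand of some gamma delta T cells, was open in 12.6% of DN, 6.40% of DP, 3.36% of CD4, 12.9% of CD8 and 19.5% of total thymocytes, and CD4 was 0.243 times CD8 from 4 and 15 cells. H2-T23, which encodes Qa-1, was open in 18 DN, 7 DP, 16 CD4 and 9 CD8 sorted cells, CD4 being 2.02 times DP (0.786-5.81). H2-M3, which presents formylated peptides, was open in 26 DN, 11 DP, 23 CD4 and 10 CD8 sorted cells, CD4 being 2.09 times CD8 (0.958-4.93), with 2.37 and 0.780 within the label series. H2-T24 was open in 19 DN, 15 DP, 9 CD4 and 14 CD8 sorted cells and H2-Q10 had no peak. As a list, 3 of the 6 class I starts with at least 20 open cells in the pair of sorts were past 2-fold higher in CD4 than in DP (H2-K1, H2-Q4, H2-T23) and 0 were lower, against 10.5% higher and 12.0% lower over all 10349 peaks past the same minimum. All 3 intervals included 1. The log2 of their median ratio was 0.97, against a median of -0.08 over those peaks. Between DN and DP 0 of 7 class I starts were past 2-fold in either direction, against 8.60% higher and 10.3% lower over all peaks, shares that 7 starts can miss.

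**Figure D4:**
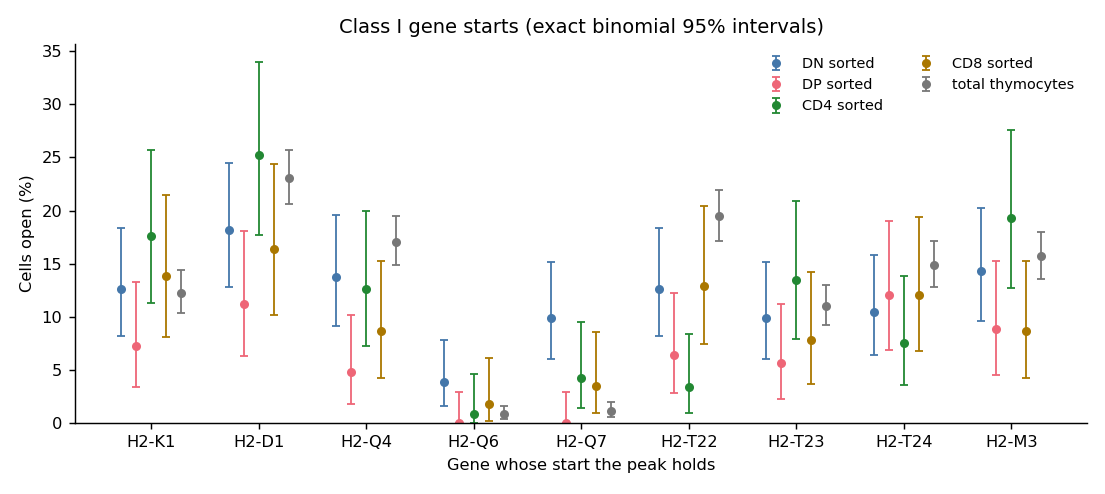
Share of cells open (y axis, percent, from 0) at the starts of class I genes (x axis) in the 4 sorts and total thymocytes, with exact binomial 95% intervals. DP sorted cells sit lowest at H2-K1, H2-D1, H2-Q4 and H2-Q7, with 0 open cells at the last.

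Genes that supply and load class I peptides lie in the class II part, except Tapbp, which lies in the flank. Their starts were open in too few cells for the counts to say much. Between DN and DP 3 of 4 peaks reached 20 open cells, and 1 of 4 in each other comparison. Of these peaks 0 were past 2-fold, against 5.62% to 12.0% of all peaks. Tap1, a peptide transporter subunit, and Psmb9, an immunoproteasome subunit, share a peak that was open in 39 DN, 13 DP, 21 CD4, 13 CD8 and 382 total thymocytes. Psmb8, the other immunoproteasome subunit of the region, was open in 23 DN, 8 DP, 7 CD4 and 8 CD8 sorted cells, and Tapbp, which bridges class I molecules to the transporter, in 16, 7, 11 and 6. Tap2, the second transporter subunit, was open at its start in 6 DN, 1 DP, 2 CD4 and 1 CD8 sorted cells. The 4 non-overlapping peaks from Psmb9 to Tap2 gave 1.98 per 10000 in DN, 1.74 in DP, 1.25 in CD4 and 2.02 in CD8. There CD4 was 0.618 times CD8 (0.387-0.977), but this went from 0.503 in the label numbers from 4000 to 1.71 in those from 31000.

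The classical class II genes were open in few cells of any sort. H2-Ab1, the beta chain of I-A, was open in 9.89% of DN, 4.00% of DP, 10.9% of CD4, 4.31% of CD8 and 10.3% of total thymocytes. H2-Aa, its alpha chain, was open in 7 of 182 DN (3.85%), 3 of 125 DP (2.40%), 15 of 119 CD4 (12.6%) and 2 of 116 CD8 (1.72%) sorted cells, with 2.58% of total thymocytes. Scaled by openings, CD4 at H2-Aa was 4.42 times DP (1.25-23.8) and 6.83 times CD8 (1.59-61.5), but with 18 and 17 open cells neither pair reached the minimum of 20. After thinning to 1000 open peaks per cell, H2-Aa was open in 1.78% of DN, 0.917% of DP, 1.12% of CD4 and 1.14% of CD8 cells, so that the sorts could not be told apart at that depth. Of these CD4 cells, 13 came from the 64 with label numbers from 4000 and 2 from the 55 from 31000. H2-Eb1, the beta chain of I-E, was open in 8 DN, 1 DP, 6 CD4 and 3 CD8 sorted cells, and H2-Eb2 had no peak. From H2-Ab1 to H2-Eb2 (chr17:34255689-34343412, 8 non-overlapping peaks) openings made up 1.27 per 10000 in DN (64), 0.678 in DP (16), 1.40 in CD4 (38) and 0.866 in CD8 (21). CD4 was 2.06 times DP (1.12-3.95) and DN 1.87 times (1.07-3.47). In the label numbers from 4000 these were 2.08 (0.865-5.74) and 2.14 (0.759-6.52), both intervals including 1. The DP cells with label numbers from 3000 held 1.28 per 10000 (9 of the 16 DP openings), as high as the pooled DN value, and over sets of total thymocytes the locus held 1.10 ± 0.387 per 10000 (SD, n = 36).

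Fewer cells of a class II bearing type and less openness per cell cannot be told apart in such sums, so the cells open at H2-Aa were looked at for markers of other types. Of the 15 CD4 sorted cells open at H2-Aa, 4 were open at H2-Ab1, against 9 of the other 104. At Cd74, the invariant chain that guides class II molecules, 3 of the 15 and 8 of the 104 were open. For Lyz2, a myeloid gene, the numbers were 3 and 3, while Cd3g, a T cell receptor subunit gene, was open in 4 of the 15 and 21 of the 104. These 15 cells were also deeper, with a median of 6046 open peaks against 1670. The whole myeloid and dendritic list (4 of 8 genes with a peak) held 25 openings in DN sorted cells, 0 in DP, 8 in CD4 and 5 in CD8, or 0.287, 0, 0.175 and 0.120 per 10000. The openings of that list fell on different genes in the sorts: in DN, Flt3 had 11, Spi1 9 and Lyz2 4, the first and second being genes also used by early T cell progenitors, whereas in CD4 Lyz2 had 6, Spi1 2 and Flt3 0. The part of other cell types in the class II values was not tested.

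The remaining class II genes serve peptide exchange. H2-DMa, which helps load class II molecules, shares its peak with Brd2, a bromodomain regulator, and was open in 24 DN, 4 DP, 12 CD4, 7 CD8 and 284 total thymocytes. DN was 2.78 times DP there (0.956-11.0), the 1 class II start of 3 past the minimum that was past 2-fold between these sorts, against 8.60% of all peaks past the same minimum. H2-Oa and H2-Ob, the chains of the DM inhibitor DO, were open in 18 and 12 DN, 5 and 2 DP, 5 and 6 CD4, and 7 and 5 CD8 sorted cells. H2-DMb1 and H2-DMb2 were open in 8 and 5 DN sorted cells and in at most 4 cells of any other sort.

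Class III genes included 18 starts with a peak among the 21 listed, and the complement genes gave almost no openings: C4b and Cfb had no peak and C2 was open in 0 sorted cells. The cytokine genes were open in modest shares. Ltb, which encodes lymphotoxin beta, was open in 15 DN, 9 DP, 15 CD4, 11 CD8 and 168 total thymocytes, Tnf in 9, 4, 9, 4 and 19, and Lta in 3, 8, 9, 5 and 82. Lta was the one of these with its lowest number in DN sorted cells, despite their greater number. These numbers depend on the peak taken, here the one nearest to each start. The most open peaks that hold the Ltb and Tnf starts were open in 27.6% and 18.3% of total thymocytes. From Lst1 to Lta the non-overlapping peaks held 1.65 per 10000 in DN, 1.57 in DP, 1.80 in CD4 and 1.94 in CD8. The heat shock genes Hspa1a and Hspa1b were open in 6 and 8 DN, 3 and 3 DP, 5 and 2 CD4, and 6 and 5 CD8 sorted cells.

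Broadly active class III genes gave the higher numbers. Csnk2b, a casein kinase subunit, was open in 43 DN, 16 DP, 27 CD4, 18 CD8 and 369 total thymocytes, and no comparison of it was past 2-fold. Neu1, a lysosomal sialidase, was open in 34 DN, 7 DP, 11 CD4 and 13 CD8 sorted cells, DN being 2.25 times DP (0.983-6.02), with 2.69 and 0.752 within the label series. Vars, a valyl-tRNA synthetase gene, was open in 20 DN, 3 DP, 10 CD4 and 4 CD8 sorted cells, DN being 3.09 times DP (0.917-16.2). These 2 were the class III starts past 2-fold between DN and DP, of 9 past the minimum, and 0 were lower, against 8.60% higher and 10.3% lower over all peaks. Both intervals included 1. Bag6, a chaperone for membrane proteins, was open in 7 DP and 16 CD8 sorted cells, CD8 being 2.22 times DP (0.864-6.38), with 1.46 and 6.31 within the label series. Ddx39b, an RNA helicase, was open in 32 DN, 12 DP, 17 CD4 and 5 CD8 sorted cells, CD4 being 3.09 times CD8 (1.10-10.7).

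Outside the MHC genes proper, Rps18, a ribosomal protein gene of the flank, was open in 25 DN, 5 DP, 17 CD4 and 13 CD8 sorted cells, CD4 being 3.00 times DP (1.06-10.4). Gabbr1, a GABA B receptor subunit gene near the end of the region, went the other way. It was open in 20 of 182 DN (11.0%), 21 of 125 DP (16.8%), 10 of 119 CD4 (8.40%) and 5 of 116 CD8 (4.31%) sorted cells, so that DP was highest. The ratios to DP were 0.442 in DN (0.227-0.856), 0.421 in CD4 (0.177-0.934) and 0.231 in CD8 (0.0681-0.630), and 0.29, 0.32 and 0.17 in the label numbers from 4000. Daxx, a histone chaperone gene, was open in 49 DN, 25 DP, 18 CD4 and 31 CD8 sorted cells, Mdc1 in 73, 41, 47 and 30, and Tubb5, a beta tubulin gene, in 37, 21, 15 and 22. Pou5f1 and Mog, genes of germ cells and of myelin, had no peak.

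Counting over single peaks, a difference was taken as past 2-fold only where the pair of sorts had at least 20 open cells at the peak. Between DN and DP, 130 members reached this number, of which 17 (13.1%) were at least 2-fold higher in DN, against 8.60% of 16596 peaks of the table. Another 12 (9.23%) were lower in DN, against 10.3%. For CD4 over DP, 13 of 70 members (18.6%) were higher against 10.5% of 10349 peaks, and 4 (5.71%) were lower against 12.0%. For CD8 over DP, 3 of 62 (4.84%) were higher against 5.62% of 9736 peaks and 7 (11.3%) lower against 8.66%. For CD4 over CD8, 9 of 72 (12.5%) were higher against 8.36% of 10499 peaks and 3 (4.17%) lower against 7.00%. The CD4 counts thus leaned upward relative to the table while the CD8 counts stayed near it, and the counts are small and neighbours share cells. Median log2 ratios were 0.13 for members against -0.14 for all peaks in DN over DP, 0.09 against -0.08 in CD4 over DP, -0.09 against -0.14 in CD8 over DP and 0.27 against 0.02 in CD4 over CD8. Of the 13 members higher in CD4, 8 were class I peaks (of 32), 2 class III (of 23), 0 class II (of 6) and 3 from the flank (of 9). The 8 were 3 framework (of 15), 2 M (of 7), 1 K (of 3), 1 D/Q (of 2) and 1 T (of 5) peaks.

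A group of 4 peaks made up all the members at least 2-fold lower in CD4 than in DP, and all 4 were also lower in DN and CD8 than in DP sorted cells. They were chosen for a low ratio to DP and all these ratios share the same DP cells, so the DN and CD8 values are a description and not a second observation of the pattern. A peak in an intron of H2-T24 (chr17:36018256-36022255) was open in 16.0% of DP, 4.95% of DN, 2.52% of CD4 and 8.62% of CD8 sorted cells, and in 7.66% of total thymocytes. A peak in an exon of Gtf2h4, a subunit gene of the transcription and repair factor TFIIH (chr17:35670114-35674113), was open in 24.8% of DP, 8.24% of DN, 5.04% of CD4, 7.76% of CD8 and 32.5% of total thymocytes. A peak in an exon of Tap2, 8380 bp from its start (chr17:34209908-34213907), was open in 14.4% of DP, 6.04% of DN, 2.52% of CD4 and 6.03% of CD8 sorted cells. The Gabbr1 start (chr17:37043995-37047994) was the other member of the group. CD4 was 0.13 times DP at the H2-T24 peak (0.03-0.45), 0.17 at Gtf2h4 (0.06-0.42) and 0.15 at Tap2. DN was 0.21 times DP at H2-T24 (0.08-0.48), 0.22 at Gtf2h4 (0.11-0.43) and 0.28 at Tap2. In the label numbers from 4000 the same peaks were open in 14, 17, 15 and 14 DP cells of 64, and in at most 3 DN cells of 32. In those from 31000 the DP sort had 0, 5, 1 and 0 open cells, and DP was the highest there at Gtf2h4 alone, where DN had 1 open cell and the CD4 and CD8 sorts 0. At Tap2 this series had 3 open DN, 1 CD4 and 2 CD8 cells.

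**Figure D5:**
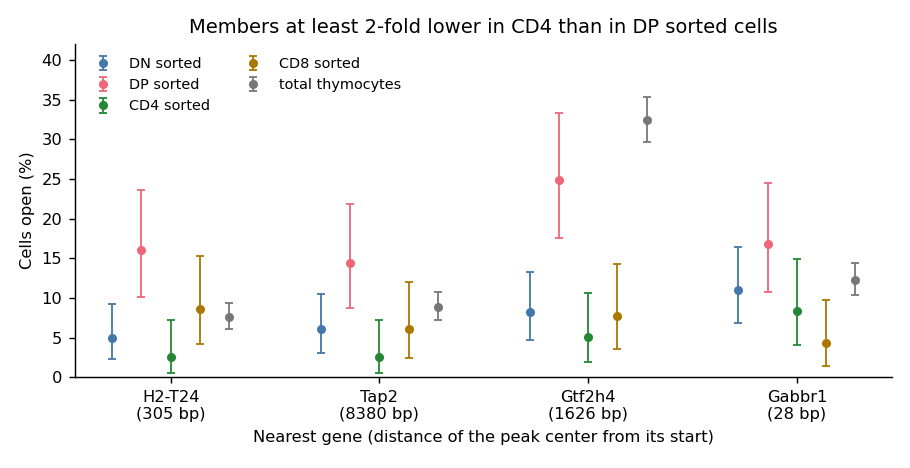
Share of cells open (y axis, percent, from 0) at the 4 members at least 2-fold lower in CD4 than in DP sorted cells (x axis, nearest gene and distance of the peak centre from its start), with exact binomial 95% intervals. DP sorted cells are the highest of the 4 sorts at each, from 14.4% to 24.8%.

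The start of Gtf2h4 itself followed another order. Its peak (chr17:35671829-35675828) was open in 15.4% of DN, 17.6% of DP, 25.2% of CD4, 6.90% of CD8 and 29.3% of total thymocytes. CD4 was 3.41 times CD8 (1.53-8.62), with 3.45 and 2.18 within the label series. So within the same gene the exon peak was highest in DP, and the start peak was highest in CD4 and lowest in CD8 sorted cells.

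A few other members separated the CD4 and CD8 sorts. A peak 9472 bp downstream of the H2-Oa start (chr17:34099813-34103812, between genes) was open in 18 CD4 and 3 CD8 sorted cells, a ratio of 5.46 (1.59-28.9) that was 8.41 in the label numbers from 4000 and 0.62 in those from 31000. A peak in an exon of Tap1, centred at -1156 bp from the Psmb8 start (chr17:34194635-34198634), was open in 4.20% of CD4 and 19.8% of CD8 sorted cells, at 0.20 (0.06-0.53), with 13.2% of DN and 10.4% of DP. A peak downstream of the start of Rpp21, a ribonuclease P subunit gene (chr17:36250620-36254619), was open in 17.2% of CD8, 6.72% of CD4, 4.00% of DP and 8.24% of DN sorted cells, CD8 being 3.88 times DP (1.41-13.2). All 20 of the CD8 cells open there had label numbers from 4000. A peak at Trim26, a ubiquitin ligase gene of the class I M block (chr17:36834413-36838412), was open in 19.3% of CD4, 6.04% of DN, 6.40% of DP and 6.90% of CD8 sorted cells. There CD4 was 2.54 times DP and 2.62 times CD8, with 1.67 and 1.95 in the label numbers from 4000 and 2.46 and 3.12 in those from 31000.

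Higher in DN than in DP were a peak at the Vars promoter with 20 and 0 open cells (at least 3.09-fold higher than a floor of 3 DP cells, the exact interval of the ratio reaching down to 2.29), a peak at Lst1, a leukocyte gene, with 18 and 2 (4.17, 1.00-37.1), an exon peak of Kank3 with 24 and 3 (3.71), and a peak at Rxrb, a retinoid X receptor gene, with 21 and 3 (3.25). In the label numbers from 4000 the ratios at Lst1, Kank3 and Rxrb were 2.02, 2.24 and 1.34, and at Rxrb it was 0.75 in those from 31000. Higher in CD4 than in DP were a Ddx39b peak with 16 and 4 open cells (3.53), an intron peak of Wdr46 with 22 and 6 (3.24) and a peak in an intron of Lta with 16 and 5 (2.83), and 2.24, 2.43 and 3.42 in the label numbers from 4000. The Wdr46 peak was open in 18.5% of CD4 sorted cells and 2.77% of total thymocytes, but after thinning to 1000 open peaks per cell in 2.25% of CD4 and 4.59% of DP sorted cells, the other direction.

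Genes of antigen presentation outside the region gave a comparison at other chromosomes. Of 24 such genes 21 had a peak at the start, and of the 15, 12, 12 and 13 past the minimum in the comparisons of DN, CD4 and CD8 with DP and of CD4 with CD8, 0 were past 2-fold in either direction, against 5.62% to 12.0% of all peaks, shares that few genes can miss. B2m, the light chain of class I molecules, was open in 27.5% of DN, 12.8% of DP, 21.8% of CD4, 18.1% of CD8 and 20.8% of total thymocytes. Rfx5, an X box binding factor of class II genes, was open in 53 DN, 18 DP, 20 CD4 and 30 CD8 sorted cells. Ciita, the class II coactivator, was open in 0 DN, 1 DP, 0 CD4 and 0 CD8 sorted cells, and Cd74 in 11, 0, 11 and 0. Of the 11 DN cells open at Cd74, 5 had label numbers from 1000 and 3 from 2000, series that hold no DP cells. Psmb11, of the thymic epithelial proteasome, was open in 1 of the 542 sorted cells.

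The scRNA-seq library of 1993 cells was set beside the total thymocytes. Of 192 coding genes that start in the region, 137 start in a member peak and 95 of these are in the scRNA-seq table, which holds 8846 genes. Here each gene was given the most open of the peaks that hold its start, which need not be the one nearest to it. Starts of these 95 were open in a median of 16.2% of total thymocytes, against 4.52% for the 42 that are not in the table. Among the 95, openness and the share of scRNA-seq cells with a value above 0 had a Spearman rho of 0.296, as a description across genes that share the same cells and depth. Tubb5 was detected in 94.6% of scRNA-seq cells and open in 26.2% of total thymocytes, whereas Clic1, a chloride channel family gene, was detected in 89.9% and open in 6.92%, and Psmb8 in 89.3% and 16.4%. H2-D1 was detected in 64.5% and open in 23.1%, H2-K1 in 48.2% and 12.3%, and H2-Q7 in 15.9% and 1.11%. The class II genes H2-Ab1 and H2-Aa were detected in 28.4% and 19.1% of scRNA-seq cells. These are shares over all cells of the library, and the part of free RNA in them was not tested.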

How the data were processed

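The scATAC-seq counts are whole numbers per peak and cell as the authors deposited them. Per the paper's methods, the authors trimmed adapters, aligned with Bowtie2, removed duplicates with Picard and ran MACS2 over the pooled reads of every cell, keeping peaks by Q-value, so that a peak is not specific to a sort. The scRNA-seq values are log2 expression that the authors deposited after quantile normalisation, from Cell Ranger 1.3.1 per the submitters' processing notes, and only values above 0 were counted. The notes also name GRCm38.p5 and hg38. GRCm38 was used, since 23.2% of peak centres lay within 2 kb of a coding start (GENCODE M21), against 6.36% after a shift of 100000 bp. For 362 columns of the scATAC-seq table no sample label matched and they were not used, which left 1626 cells.

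Counts were limited to 1 per cell and peak. Where sums were taken, peaks were chosen in order of open cells so that none overlapped another (62536 peaks). Ratios for single peaks used openings in all peaks. Cells with fewer than 1000 open peaks were left out of thinned shares (random seed 1). No doublet caller was run, and leaving out the 5% most open cells of each sort stands in for it below. No cell label occurred more than once. Values of the B cell marker list are not reported here. Genes named are those of fixed lists of the region, at the peak whose centre is nearest to the start (beside mRNA, the most open peak that holds the start), and the largest ratios past 2-fold. The members and lists were chosen with earlier results of these data known. Label numbers are not described as batches. Python 3.11.15, numpy 2.4.6, scipy 1.17.1, pandas 2.3.3 and matplotlib 3.10.9 were used, and the scripts were tested on simulated data. Cells of a sort may come from the same animal, so intervals do not cover variation between animals.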

Additional observations from a re-analysis of the deposited data

How the results depend on the processing

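Of 201 alternative values for 20 ratios between sorts (3 classes, the D/Q block and the H2-Ab1 to H2-Eb2 locus), 183 lay inside the counting interval of the value reported, 18 outside and 0 turned a ratio whose interval excluded 1 to the other side. In the shallow label numbers from 31000 alone, ratios to DP were 6.99 for CD4, 8.83 for CD8 and 5.47 for DN in the D/Q block, 1.92, 1.81 and 2.06 in class I, 1.59 for CD4 and 2.15 for DN in class II, and 1.56 for DN in class III, and CD4 over CD8 in class II was 1.44. There DP had 0 openings from H2-Ab1 to H2-Eb2, so its ratios gave no value. With counts as deposited, CD4 was 2.74 times DP and 1.16 times CD8 in D/Q and 1.35 times DP in class I. With promoter peaks only, DN was 1.79 and CD8 1.32 times DP in class II, and CD4 1.19 times CD8 in class I. With cells weighted equally, DN over DP in class III was 1.01. With D/Q peaks under 10% repeated windows, CD4 over CD8 was 1.48. The causes were not tested.

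Counts of members past 2-fold depended on the minimum. At 40 open cells they were 2 higher and 2 lower for DN over DP, 0 and 0 for CD4 over DP, 0 and 1 for CD8 over DP, and 0 and 0 for CD4 over CD8, fewer peaks being counted. Over all peaks the shares were then 1.87% and 5.95%, 2.30% and 4.98%, 1.01% and 3.39%, and 1.46% and 1.99%. With counts as deposited, 5 of 72 members (6.94%, against 8.44% of all peaks) were lower in CD4 than CD8. With the same counts 6 of 62 (9.68%, against 7.10%) were higher in CD8 than DP. With cells of at least 1000 open peaks, 1 of 59 (1.69%, against 5.56%) was higher in CD8 than DP. The following were chosen after seeing the data, as was the division by repeated windows. Without label numbers from 31000 upward, 7 of 84 members (8.33%, against 6.13% of all peaks) were higher and 5 (5.95%, against 11.4%) lower in DN than DP, 8 of 52 (15.4%, against 9.08%) higher in CD4 and 1 of 53 (1.89%, against 5.30%) in CD8. Without the most open cells (10 DN, 7 DP, 6 CD4, 6 CD8), 11 of 101 (10.9%, against 8.08%) were higher in DN than DP, 7 of 49 (14.3%, against 9.53%) higher and 2 (4.08%, against 11.5%) lower in CD4 than DP, and 5 of 55 (9.09%, against 7.81%) higher in CD4 than CD8. Over non-overlapping peaks, 8 of 80 (10.0%, against 8.38%) were higher and 7 (8.75%, against 9.18%) lower in DN than DP. In CD4, 7 of 52 (13.5%, against 9.35%) were higher and 2 (3.85%, against 11.8%) lower than in DP. In CD8, 4 of 50 (8.00%, against 8.32%) were lower than in DP, and 5 of 56 (8.93%, against 7.63%) were higher in CD4 than CD8. Over peaks at least 2000 bp apart (382 members), 6 of 91 (6.59%, against 9.65%) were lower in DN than DP. In CD4, 8 of 56 (14.3%, against 9.14%) were higher and 2 (3.57%, against 12.3%) lower than in DP. In CD8, 4 of 53 (7.55%, against 8.51%) were lower than in DP. Except for counts as deposited, these alternatives left fewer members past the minimum. Under the alternatives with the minimum of 20, the share of all peaks ran from 5.13% (CD8 higher than DP, non-overlapping peaks) to 13.2% (CD4 lower than DP, counts as deposited). No paired analysis was possible because each sort is 1 sample and no test was run. Depth limits what single peaks can show: intervals of most ratios named for gene starts included 1.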
